A study of Drosophila melanogaster with 6 samples.

Results

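Transcript levels of 9 genes for rhabdomere separation, adhesion and apical polarity were compared between heads of flies raised without and with beta-carotene, the dietary source of vitamin A. Rhabdomeres are the light-gathering organelles of fly photoreceptors. The genes were taken from a named list, by FlyBase identifier, and were eys, prom, chp, crb, sdt, Patj, bif, nrv3 and fwe. They are 9 of the 17509 genes in each count file, and all 9 passed the filter on low counts that left 10896 genes for testing.

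RNA was sequenced in 6 libraries, each made from total RNA of whole heads. The flies were wild-type Canton S females of Drosophila melanogaster, 4 days old, kept at 25 °C and 50% humidity. Both groups ate minimal food, to which beta-carotene was added in the vitamin A replete group (3 libraries) and not in the vitamin A deprived group (3 libraries). The labels name no transgene or mutation in either group, and do not say whether libraries came from separate flies, so the p-values below measure only the spread between these libraries, which may be technical.

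As background, eys encodes a secreted matrix protein that fills the inter-rhabdomeral space, and prom encodes prominin, a membrane protein of the photoreceptor apical surface that acts with it to separate the rhabdomeres. The chp product, chaoptin, is an adhesion protein on the rhabdomere microvilli that holds them together, and it counters that separation. The Crumbs complex marks the stalk membrane, the apical membrane beside the rhabdomere. Its members are the transmembrane protein encoded by crb and the scaffold proteins encoded by sdt and Patj.

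The libraries held 21344395 to 24165187 counts in the deprived group and 15668307 to 17935321 in the replete group, so every deprived library was the deeper. The library codes in the labels of the groups run in separate ranges, with no word on their meaning, and diet cannot be told apart from any batch behind them. All 20 photoreceptor markers looked for were counted in every library, with a summed level of 26822 to 30702 CPM (the count scaled to library size with TMM) in deprived heads, against 28792 to 30436 CPM in replete ones. None of the markers of pigment cells, cone cells and lens, neurons, glia, muscle, fat body, haemocytes or germline that were matched was at 0 in all libraries. The 6 neuronal markers had higher means in deprived heads, with sums of 4738 to 5048 against 4561 to 4724 CPM. The 5 tested of 6 muscle markers had lower means in deprived heads, with sums over all 6 of 3515 to 4750 against 3877 to 6081 CPM. Sums of the 6 cone cell and lens markers were 3383 to 3475 against 3136 to 3380 CPM, which did not overlap, although 4 of the 6 had lower means in deprived heads. Of the 6 fat body markers 1, the storage protein gene Lsp2, was called higher (log2 fold change 0.76, edgeR adjusted p = 0.0373). Of all tested genes, 0.294% were called higher. The fat body sums overlapped at 113755 to 141476 against 114472 to 133367 CPM. The sums also overlapped for pigment cells, at 319 to 351 against 296 to 328 CPM, for glia, at 1597 to 1719 against 1502 to 1897 CPM, and for haemocytes, at 421 to 466 against 391 to 493 CPM. Sums of the 5 germline markers ran from 11.9 to 42.1 CPM with deprivation and from 0.492 to 79.9 CPM without. The part of these marker differences in the results below was not tested, and in whole heads a change in the number of cells of a type and a change in transcript per cell cannot be told apart.

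Of the 9 genes, eys alone passed the test, with about double the level in vitamin A deprived heads. That is 1 of 9, where 36 of 10896 tested genes (0.33%) were called in either direction, of which 32 (0.294%) were higher and 4 (0.0367%) lower, at a Benjamini-Hochberg adjusted p under 0.05 in edgeR's quasi-likelihood test. DESeq2 and limma-voom also called 1 of the 9, eys, where they called 0.766% and 0.275% of all genes. At an unadjusted p under 0.05 there were 2 of the 9, eys and prom, beside 5.13% of all tested genes. Values of the deprived and replete libraries did not overlap for 5 of the 9 genes, 2 higher (eys and sdt) and 3 lower (prom, Patj and bif), against 10.9% of all tested genes in either direction, 5.86% higher and 5.02% lower. The median log2 fold change of the 9 was 0.03, beside -0.01 over all tested genes. The 9 genes were chosen with earlier results of these data known, so these shares do not come from a neutral sample of genes.

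**Figure D1:**
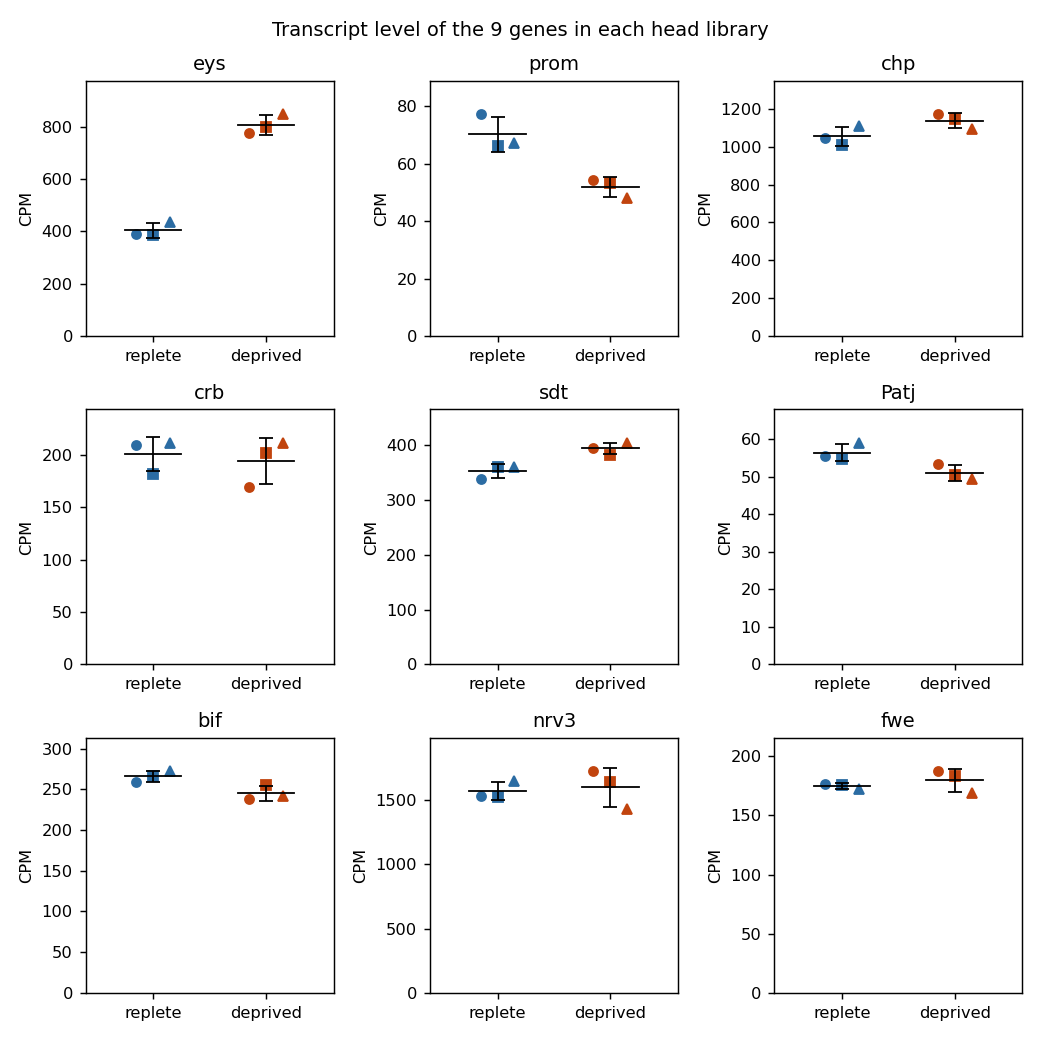
Level in CPM (vertical axis, from 0) of each of the 9 genes in the 3 replete and 3 deprived libraries; point shapes mark replicates 1 (circle), 2 (square) and 3 (triangle), and bars show the mean ± SD (n = 3). The lowest deprived library of eys, at 776 CPM, lies above the highest replete one, at 437 CPM.

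The matrix gene eys (FBgn0031414) lies on the plus strand of chromosome 2L at 2311680 to 2358944 in the Ensembl annotation of assembly BDGP6.54. Its 2 annotated transcripts together cover 8481 exonic bases. The deprived libraries were at 776, 798 and 848 CPM, and the replete libraries at 391, 386 and 437 CPM. All deprived libraries were high, all replete libraries were low, and the gap between the groups was wider than the range within either. Deprived heads averaged 807 ± 36.9 CPM against 404 ± 28.3 CPM with vitamin A (SD, n = 3 each). The change was 2.00-fold with a 95% interval of 1.74 to 2.29, or a log2 fold change of 1.00 ± 0.09 (SE; edgeR quasi-likelihood, adjusted p = 0.000182).

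These values rest on 17469 to 20297 reads of eys in the deprived and 6298 to 7100 in the replete libraries. By unadjusted p, eys ranked 7 among the 10896 tested genes, and by mean level it ranked 199. Of the 1859 tested genes that averaged 100 CPM or more, 12 were called and 8 had a larger log2 fold change than eys. Exons of CG9967, on the opposite strand, share 67 bases with those of eys, or 0.79% of its exonic length, and CG9967 held 131, 100 and 128 counts with deprivation and 100, 95 and 74 without. A strand setting for the counting is not known here.

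The log2 fold change of eys stayed between 0.96 and 1.07 in all 16 other ways of processing, and its adjusted p was at most 0.00887. Scaled to the median of the 20 photoreceptor genes instead of to all genes, its log2 fold change was 1.04, as large as with the usual scaling. Those 20 were not all steady, since 1 was called higher (5%) and 2 lower (10%), beside 0.294% and 0.0367% of all tested genes. Their log2 fold changes ran from -1.18 to 1.67. Set against ninaE, the gene of the main rhodopsin of the outer photoreceptors, the eys to ninaE count ratio was 0.0587, 0.0714 and 0.0753 with deprivation and 0.0369, 0.0316 and 0.0417 without. Here too no library of either group reached the other group.

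**Figure D2:**
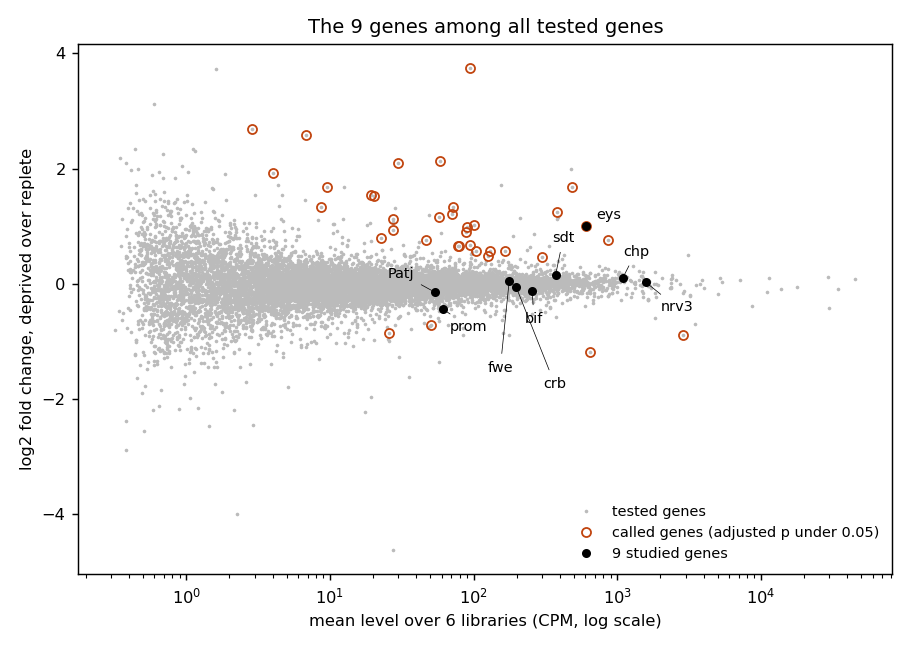
Log2 fold change of deprived over replete heads (vertical axis) against mean level over the 6 libraries (horizontal log axis, CPM) for all 10896 tested genes; open circles mark the 36 called genes and black points the 9 genes described here. The point for eys stands at a log2 fold change of 1.00, and those of the other 8 genes lie between -0.44 and 0.16.

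The partner of eys in separating rhabdomeres, prom (FBgn0259210, chromosome 2R, 24415410 to 24428387), had the next largest difference, in the opposite direction, and did not pass the test. It was at 54.3, 53.3 and 48.0 CPM in the deprived libraries and at 77.2, 66.1 and 67.4 CPM in the replete libraries. Each deprived library was below each replete one, and replete library 1 was the highest of all. Deprived heads averaged 51.9 ± 3.36 CPM against 70.2 ± 6.08 CPM (SD, n = 3 each). The log2 fold change was -0.44 ± 0.11 (SE), at an unadjusted p of 0.00137 and an adjusted p of 0.207 in edgeR. Its 95% interval ran from 0.630-fold to 0.866-fold. In the 16 other ways of processing the log2 fold change of prom ran from -0.50 to -0.36 and the adjusted p from 0.0665, in DESeq2, to 0.974, without deprived library 3. The depth behind prom was 1095 to 1245 reads per library.

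The chaoptin gene chp (FBgn0267435, chromosome 3R, 31204180 to 31210730) was at 1172, 1146 and 1093 CPM in the deprived libraries and at 1047, 1011 and 1110 CPM in the replete libraries. The groups overlapped, since deprived library 3 was below replete library 3. The means were 1137 ± 40.1 and 1056 ± 50.3 CPM (SD, n = 3 each), and the 95% interval of the change was 0.946-fold to 1.23-fold (edgeR, adjusted p = 0.999). The upper end of this interval lies below the lower end of that of eys, 1.74-fold.

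Deprived heads had more eys transcript per prom transcript and per chp transcript in every library. The eys to prom count ratio was 14.3, 14.97 and 17.7 with deprivation, against 5.06, 5.83 and 6.48 with vitamin A. The lowest deprived ratio was 2.21 times the highest replete ratio. On average the ratio was 15.6 ± 1.77 against 5.79 ± 0.714 (SD, n = 3 each), a 2.70-fold difference or 1.43 on the log2 scale. An exact two-sided permutation test over the 6 libraries gave p = 0.1, the smallest that 3 against 3 libraries can give, so this design cannot reach the threshold of 0.05.

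The eys to chp count ratio was 0.662, 0.696 and 0.776 with deprivation, against 0.373, 0.382 and 0.394 with vitamin A. The replete ratios were close together and all below the deprived ones. The means were 0.712 ± 0.0583 and 0.383 ± 0.0104 (SD, n = 3 each), a 1.86-fold difference or 0.89 on the log2 scale, again with the smallest exact two-sided permutation p of 0.1. Per kilobase of exon, eys stood at 8.07 ± 0.916 times prom in deprived and 2.99 ± 0.368 times prom in replete heads, and at 0.409 ± 0.0335 and 0.220 ± 0.00595 times chp. A ratio within a library does not depend on how libraries are scaled. All 8 ratios of eys to another of the 9 genes had groups that did not overlap. All 8 share the values of eys, whose lowest deprived library (776 CPM) was far above its highest replete one (437 CPM). The 8 ratios are therefore no support separate from eys itself.

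**Figure D3:**
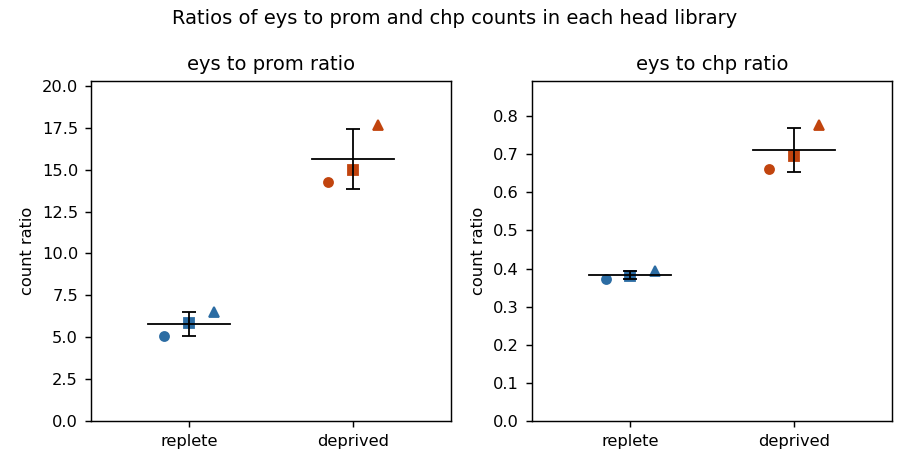
Count ratios of eys to prom (left) and of eys to chp (right) in each library, on axes from 0; shapes mark replicates 1 (circle), 2 (square) and 3 (triangle), and bars show the mean ± SD (n = 3). The deprived ratios to prom, 14.3 to 17.7, all lie above the replete ones, 5.06 to 6.48.

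None of the 3 Crumbs complex genes passed the test. The gene crb (FBgn0259685) encodes the transmembrane protein that sets the extent of the stalk membrane. It was at 169, 202 and 212 CPM in the deprived libraries and at 210, 182 and 212 CPM in the replete libraries, and the groups overlapped over most of their range. Its log2 fold change was -0.05 ± 0.11 (SE; edgeR, adjusted p = 0.999), and without deprived library 1, the lowest, it was 0.04.

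The gene sdt (FBgn0261873) encodes Stardust, the scaffold that binds the tail of Crumbs. It was at 394, 382 and 404 CPM in the deprived libraries and at 338, 361 and 359 CPM in the replete libraries. Every deprived library was above every replete one, by a margin that was small beside that of eys. Its log2 fold change was 0.16 ± 0.08 (SE; edgeR, adjusted p = 0.988), with a 95% interval of 0.986-fold to 1.26-fold.

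The gene Patj (FBgn0067864) encodes a scaffold with many PDZ domains that joins the complex through Stardust. It was at 53.4, 50.4 and 49.3 CPM in the deprived libraries and at 55.6, 54.6 and 59.0 CPM in the replete libraries. The deprived libraries were all lower, with deprived library 1 just under replete library 2. Its log2 fold change was -0.14 ± 0.10 (SE; edgeR, adjusted p = 0.999). Exons of JTBR on the opposite strand cover 177 bases, or 5.37%, of the exonic length of Patj. JTBR held 153, 112 and 177 counts with deprivation and 92, 185 and 65 without. How reads in the shared stretch were counted is not known here.

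Within the complex, the Patj to sdt count ratio was 0.135, 0.132 and 0.122 with deprivation, against 0.165, 0.151 and 0.164 with vitamin A. These groups did not overlap, which follows from Patj being lower and sdt higher in every deprived library than in every replete one. The groups of the crb to sdt ratio did overlap, at 0.429 to 0.529 against 0.505 to 0.621. Per kilobase of exon, Patj stood at 0.435 ± 0.0234 times sdt in deprived and 0.537 ± 0.0252 times sdt in replete heads (SD, n = 3 each). The 14 annotated transcripts of sdt were counted together, so a shift between its isoforms could not be seen. The difference in ratio was noticed after the values were seen and was not tested.

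The remaining 3 genes act at the membrane or on the cytoskeleton, and none passed the test. The gene bif (FBgn0014133) encodes Bifocal, an actin-associated protein that shapes the rhabdomere. It was at 238, 256 and 242 CPM in the deprived libraries and at 259, 267 and 272 CPM in the replete libraries. The deprived values were all lower, with deprived library 2 just under replete library 1, and the log2 fold change was -0.12 ± 0.08 (SE; edgeR, adjusted p = 0.999).

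The gene nrv3 (FBgn0032946) encodes a beta subunit of the sodium and potassium pump, which restores ion gradients in excitable cells. It was at 1724, 1638 and 1433 CPM in the deprived libraries and at 1532, 1527 and 1651 CPM in the replete libraries. The deprived group held both the highest and the lowest library, and the log2 fold change was 0.03 ± 0.10 (SE; edgeR, adjusted p = 0.999). Without deprived library 1 it was -0.03.

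The gene fwe (FBgn0261722) encodes Flower, a membrane protein of synaptic vesicles that acts in endocytosis and, in other fly tissues, marks cells in competition. It was at 187, 183 and 169 CPM in the deprived libraries and at 176, 175 and 172 CPM in the replete libraries. The replete values lay within the deprived range, and the log2 fold change was 0.04 ± 0.08 (SE; edgeR, adjusted p = 0.999). The 3 annotated transcripts of fwe, which give its protein isoforms, were not told apart by these counts.

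For the 7 genes other than eys and prom, the 95% intervals together ran from 0.778-fold to 1.26-fold. Within a group, the coefficient of variation of the 9 genes ran from 1.36% (fwe, replete) to 11.5% (crb, deprived). That of eys was 4.57% in deprived and 6.995% in replete heads.

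To set levels of different genes side by side, CPM was divided by exonic length in kilobases. In replete heads nrv3 was highest at 329 ± 14.7 CPM per kilobase, then chp at 217 ± 10.3, fwe at 57.8 ± 0.787 and eys at 47.7 ± 3.34 CPM per kilobase (SD, n = 3). Below these came sdt at 31.9 ± 1.18, bif at 30.1 ± 0.730, crb at 24.7 ± 2.02, Patj at 17.1 ± 0.705 and prom at 16.0 ± 1.39 CPM per kilobase. In this order sdt overlapped bif, and Patj overlapped prom. In deprived heads eys stood at 95.2 ± 4.35 CPM per kilobase, above fwe at 59.5 ± 3.21, the order of the others was the same, and no neighbours in it overlapped. The lowest in deprived heads was prom at 11.8 ± 0.766 CPM per kilobase, apart from Patj at 15.5 ± 0.649. Exonic lengths come from the annotation used here, which may differ from the one the reads were counted on.

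Genes that work with the 9 were read from 7 lists, of which 95 genes were tested. Of these 0 passed edgeR's test over all tested genes and limma-voom called 0, while DESeq2 called 2 (pyd and O-fut1) and 0.766% of all genes it adjusted. At an unadjusted p under 0.05 in edgeR, 3 of the 95 (3.16%) were higher and 0 lower, a share of higher genes near the 2.72% of all tested genes, of which 2.41% were lower. Among 16 apical polarity partners the median log2 fold change was 0.01, and 1 gene, par-6, was among these 3. It encodes a partner of atypical protein kinase C that also meets the Crumbs complex, and was at 123, 118 and 106 CPM with deprivation and 88.3, 83.7 and 90.3 CPM without. No deprived library overlapped a replete one, and the log2 fold change was 0.41 ± 0.09 (SE; edgeR, adjusted p = 0.167). Over the 95 genes, the groups did not overlap for 3 higher and 4 lower ones, beside 5.86% and 5.02% of all tested genes. The polarity gene with the next smallest p, Magi, which encodes a junctional scaffold, was at 21.9 ± 4.25 against 27.4 ± 5.34 CPM.

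Among 17 matched cell adhesion genes the median log2 fold change was 0.05. The gene pyd encodes Polychaetoid, a junction scaffold related to vertebrate ZO proteins. It was at 439, 466 and 516 CPM in the deprived libraries and at 360, 335 and 355 CPM in the replete libraries, with no overlap. Its log2 fold change was 0.44 ± 0.09 (SE) and did not pass in edgeR (adjusted p = 0.0963), although DESeq2 called it (adjusted p = 0.00506). The catenin gene p120ctn, which acts at adherens junctions, was at 137 ± 11.03 against 151 ± 8.82 CPM, with every deprived library below every replete one. The adhesion gene hbs and the myosin gene zip were not matched by identifier and are not analysed here.

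Of the genes for the rhabdomere cytoskeleton, 25 were tested, with a median log2 fold change of -0.03 and 0 at an unadjusted p under 0.05 in either direction. Neither DESeq2 nor limma-voom called any of them. The actin regulators tsr, which encodes cofilin, and chic, which encodes profilin, were at 45.0 ± 0.592 against 54.4 ± 10.4 CPM and at 320.5 ± 11.9 against 273 ± 52.0 CPM. Among 16 extracellular matrix genes the median was -0.04, with log2 fold changes from -0.20 to 0.07 and again 0 at an unadjusted p under 0.05. There pio, an apical matrix gene, was at 117 ± 9.43 against 134 ± 20.7 CPM, and SPARC, a basement membrane gene, at 128 ± 9.27 against 139 ± 6.09 CPM. Over these 16 no log2 fold change was near that of eys.

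The eys protein carries EGF-like repeats, and 5 genes for sugars added to such repeats were read beside it, with a median log2 fold change of -0.04. The fucosyltransferase gene O-fut1 was at 15.1, 13.6 and 14.3 CPM in the deprived libraries and at 10.4, 6.38 and 4.25 CPM in the replete libraries. The replete libraries differed more among themselves than the deprived ones, and the groups did not overlap. Its log2 fold change was 1.03 ± 0.28 (SE) and did not pass in edgeR (adjusted p = 0.312), while DESeq2 called it (adjusted p = 0.0487). The glucosyltransferase gene rumi was low, at 2.18 ± 0.552 against 2.5002 ± 0.700 CPM.

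Of 7 sodium and potassium pump genes, 4 had enough reads to be tested, with 0 at an unadjusted p under 0.05. The catalytic subunit gene Atpalpha was at 3935 ± 258 against 4145 ± 216 CPM. The other beta subunit genes were at 275 ± 30.8 against 298 ± 28.3 CPM for nrv2 and at 183 ± 6.97 against 195 ± 17.8 CPM for nrv1. Per kilobase of exon, nrv3 made up 67.5% ± 1.24 of the summed level of nrv1, nrv2 and nrv3 in deprived and 65.6% ± 1.501 in replete heads (SD, n = 3 each). The nrv3 to Atpalpha count ratio was 0.432, 0.394 and 0.392 with deprivation, against 0.389, 0.369 and 0.378 without. These groups did not overlap, but the lowest deprived ratio was only 1.01 times the highest replete one. The groups of the nrv3 to nrv2 and nrv2 to Atpalpha ratios overlapped, and none of these ratios was tested. The related gene CG33310 was at 11.7 ± 2.46 against 10.7 ± 0.717 CPM. Among 12 tested genes of vesicle endocytosis, the process in which fwe acts, the median log2 fold change was -0.01 and 0 reached an unadjusted p under 0.05. There AP-2sigma, a clathrin adaptor subunit, was at 15.4 ± 2.01 against 17.96 ± 3.72 CPM, and EndoA, which encodes endophilin, at 323 ± 22.3 against 300.4 ± 16.1 CPM.

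**Figure D4:**
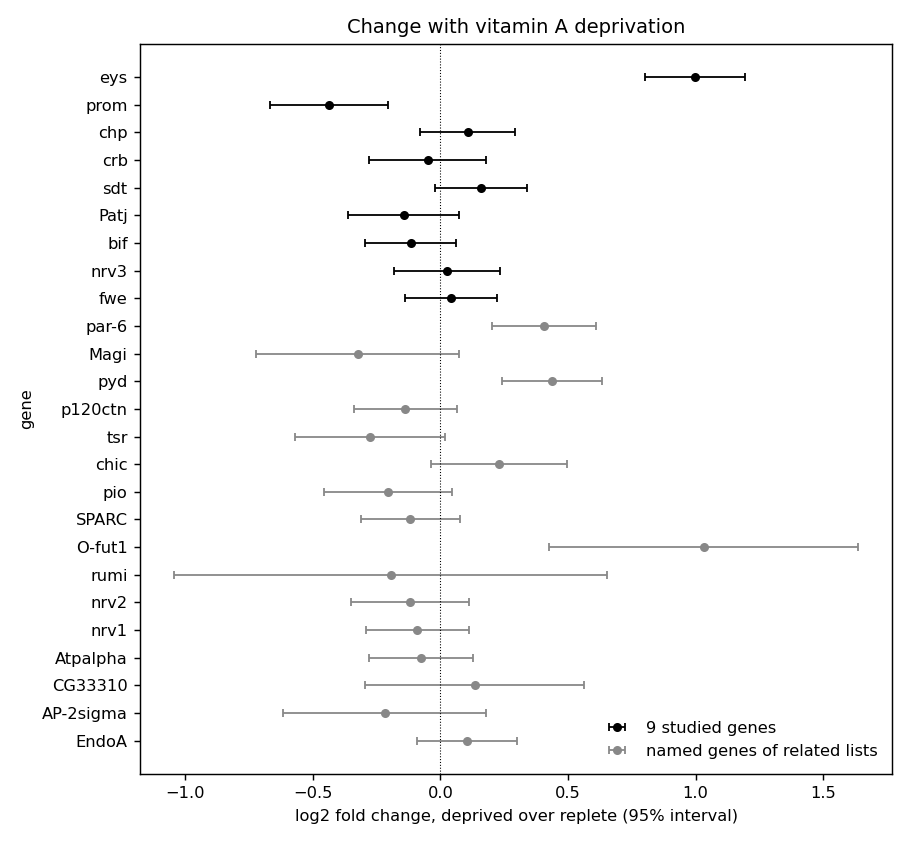
Log2 fold change of deprived over replete heads with its 95% interval (horizontal axis, edgeR) for the 9 genes (black) and for named genes of the 7 related lists (grey). The interval of eys, centred on 1.00, lies apart from those of the other 8 black points, which are centred between -0.44 and 0.16.

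The 3 most abundant genes of the photoreceptor list gave the eye context. The rhodopsin gene ninaE was at 11888 ± 1155 against 11088 ± 976 CPM and the G protein gamma subunit gene Ggamma30A at 2317 ± 238 against 2408 ± 259 CPM, neither of which passed. The arrestin gene Arr2 fell from 3724 ± 336 to 2018 ± 252 CPM (edgeR, adjusted p = 0.00272). Of the 20 photoreceptor genes 1 was called higher (5%) and 2 lower (10%), beside 0.294% and 0.0367% of all tested genes. At an unadjusted p under 0.05 in edgeR, 4 were higher and 6 lower, beside 2.72% and 2.41% of all tested genes. The groups did not overlap for 4 higher and 5 lower of the 20, beside 5.86% and 5.02% of all tested genes. Log2 fold changes of the 20 ran from -1.18 to 1.67 around a median of -0.07. The list was chosen with earlier results of these data known.

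By pattern over the 6 libraries, the genes most like eys among those that averaged 10 CPM or more were CycG, slo, galectin, cindr and CG7135, with a Pearson r in log2 CPM of 0.998, 0.993, 0.992, 0.991 and 0.991. These correlations share the libraries and the diet contrast and are given as a description, with no test. The sizes of change differed widely among the 5. Of these, cindr, which encodes an adaptor between adhesion proteins and actin, was at 193, 187 and 211 CPM with deprivation and 133, 128 and 137 CPM without, and it rose by 0.57 ± 0.09 on the log2 scale (SE; edgeR, adjusted p = 0.0122). CG7135 rose by 0.93 ± 0.12 on the log2 scale, from 19.0 ± 1.21 to 36.3 ± 1.62 CPM (edgeR, adjusted p = 0.00402). The cyclin gene CycG at 1621 ± 9.27 against 1413 ± 15.2 CPM, the potassium channel gene slo at 628 ± 2.38 against 578 ± 8.88 CPM and galectin at 69.3 ± 0.962 against 59.6 ± 0.819 CPM did not pass. Among the other 8 genes described here, sdt had the highest r with eys, 0.919, and prom the lowest, -0.944.

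**Figure D5:**
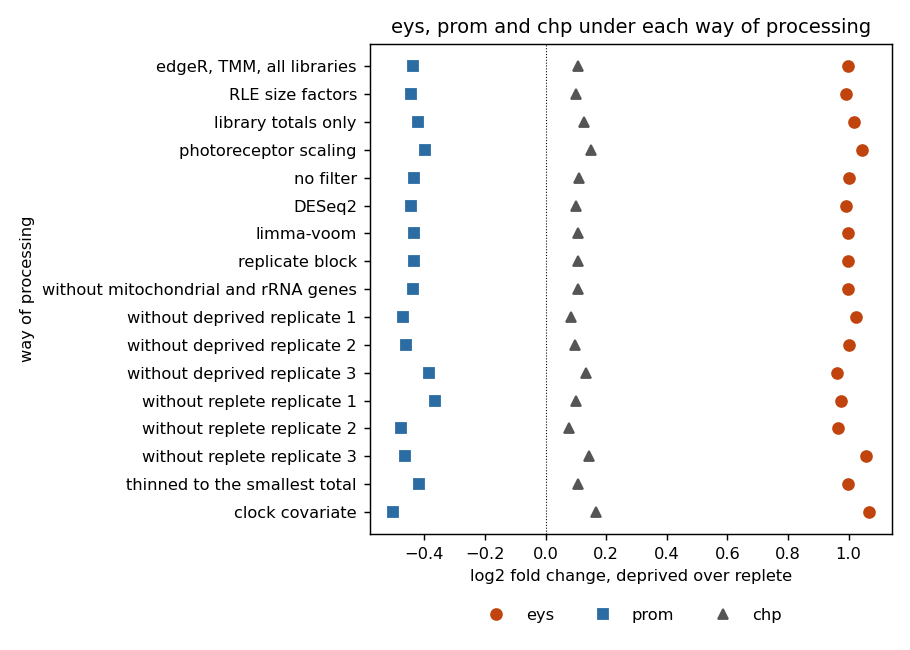
Log2 fold change of deprived over replete heads (horizontal axis) of eys, prom and chp under each way of processing (vertical axis), from the fit reported above at the top to the fit with a covariate of clock genes at the bottom. The values of eys run from 0.96 to 1.07, those of prom from -0.50 to -0.36 and those of chp from 0.08 to 0.16.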

How the data were processed

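Illumina libraries were made from head RNA, per the labels' protocols. The values the authors deposited are raw read counts, 1 per gene and library, per the file headers. STAR 2.5.3a, Subread 1.6.2 with featureCounts, Trim Galore 0.4.2 and FastQC 0.11.5 are named in the submitters' processing notes; the build, annotation and strand setting were not given in the sources used here. Symbols, positions and exonic lengths came from the Ensembl annotation of BDGP6.54, by gene identifier (17389 of 17509 matched). Genes passing filterByExpr (minimum count 10, total 15) were fitted with TMM scaling and the robust quasi-likelihood test of edgeR 4.0.16 (R 4.3.3), with group as the only term, and p-values were adjusted over all 10896. Common variation between libraries, which edgeR terms biological, was 20.6%. The test was also run on counts simulated from the mean levels and dispersions of these data. Those counts held no batch, so that run says nothing on batches in these libraries. Libraries of a group differed beyond counting noise (chi-square per degree of freedom 19.4 to 45.4). A count of 3, the detection floor, was 0.124 to 0.191 CPM, which covers counting error only. Alternatives were RLE or total scaling, scaling to photoreceptor genes, no filter, DESeq2 1.42.0, limma-voom (limma 3.58.1), a replicate block, leaving out 50 mitochondrial and rRNA genes, and leaving out each library; thinning to the smallest total and a clock-gene covariate were added after seeing the data. The 9 genes and all lists were chosen with earlier results of these data known. Named from each of the 7 lists were its called genes, or else the 2 with the smallest p, and all tested pump genes; from the photoreceptor list the 3 most abundant; and the 5 genes most like eys.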

Additional observations from a re-analysis of the deposited data

How the results depend on the processing

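The call of eys held in all 16 alternatives, and no alternative called any of the other 8 genes. Leaving out each library in turn gave eys 0.96 to 1.06 on the log2 scale, an eys to prom difference of 1.34 to 1.52 and an eys to chp difference of 0.83 to 0.94. The same fits gave -0.12 to 0.0392 for crb and -0.0335 to 0.10 for nrv3, with the sign turned for both without deprived library 1. The 36 calls over all genes became 55 with no filter (45 higher, 10 lower), 79 in DESeq2 (56 higher, 23 lower), 15 with the clock covariate (12 higher, 3 lower), and 20 to 39 with a library left out, where the count was 23 without deprived library 1 and 20 without deprived library 3; the cause was not tested. Of genes in the 7 lists, 0 were called in edgeR, 1 with no filter (pyd) and 2 in DESeq2 (pyd and O-fut1). Over all genes the same fits called 36 (0.33%), 55 and 79 (0.766%). Same-numbered libraries correlated at -0.08, -0.02 and 0.21 in their deviations, and 2 of 6 correlated best with their own number, so the labels' numbers were not taken as pairs. With the replicate block 30 genes were called and eys had a log2 fold change of 1.00 (edgeR, adjusted p = 0.0017); the block left the ratio differences at 1.43 and 0.89, with an exact sign-flip permutation p of 0.25, the smallest 3 pairs can give. Of the 9 genes, Patj and prom had the fewest reads, 896 to 1245 per library.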

Other observations

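A clock index, the mean log2(CPM + 1) of tim, vri and per minus that of Clk and cry, was 1.64, 1.78 and 2.33 with deprivation, against 1.79, 0.56 and -1.01 with vitamin A. In replete libraries 1, 2 and 3, O-fut1 was at 10.4, 6.38 and 4.25 CPM, in the same order as the index, while eys was at 391, 386 and 437 CPM. In deprived libraries 1, 2 and 3, O-fut1 was at 15.1, 13.6 and 14.3 CPM, which is not the order of the index. Replete library 1, with an index of 1.79 and O-fut1 at 10.4 CPM, was close in index to deprived library 2, at 1.78 and 13.6 CPM. With this index added to the fit, which was decided after the data were seen, the log2 fold change was 1.07 for eys (edgeR, adjusted p = 0.00887) and 0.50 for O-fut1 (edgeR, adjusted p = 0.999). Without the index, the log2 fold change was 1.00 for eys and 1.03 for O-fut1. The part of the sampling hour in these values was not tested.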
